A study of Mus musculus with 5 samples.

Results

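The cytosolic ribosomal protein genes were followed in cultured 4T1 cells, a mouse mammary carcinoma line, with and without TAZ, a transcriptional co-activator of the Hippo pathway encoded by Wwtr1. The genes were chosen by symbol alone: Rpsa, Rplp0, Rplp1, Rplp2, and Rpl or Rps followed by a number with an optional ending for a paralogue or subtype, leaving out pseudogenes and S6 kinases. This gave 79 of the 13143 genes listed, 31 of the small and 48 of the large ribosomal subunit. RNA sequencing covered 5 libraries, 2 from TAZ-KO clones and 3 from WT clones, all untreated. Both TAZ-KO clones came from a Cas9-expressing 4T1 clone that had received a lentiviral guide RNA against Wwtr1 and puromycin selection, and the WT clones were single-cell clones of Cas9-expressing 4T1 cells without a guide. Guide vector, selection and founder clone therefore cannot be told apart from the loss of TAZ. The libraries stand for 1 clone each, so a p-value here is set against variation among clones, and with 2 clones against 3 an exact permutation test of the 10 possible splits cannot give a p below 0.1.

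Every cytosolic ribosome contains 1 copy of most of its proteins, so cells make these proteins in matched amounts, from genes that are scattered over the genome. Their mRNAs belong to the TOP class, which begins with a C followed by an uninterrupted stretch of C and T bases (C and U in the RNA) and whose translation follows mTORC1 through the repressor LARP1. Mammalian genomes also carry many processed pseudogenes of these genes, which are copies of the spliced mRNA with nearly the same sequence.

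Of the 79 genes, 59 were found in the RefSeq promoter table of GRCm38.p6, which covers 250 bases before and 50 bases after each gene's start. A run of at least 8 C or T bases that began with C lay within 50 bases of the start, on the transcribed gene's own strand, in 50 of the 59 (84.7%), against 32.0% of all 27025 genes in the table. The windows below show this shared feature, with the run in capitals, for genes whose levels are described further on.
Rpl22l1, chr3:28805501-28805530, plus strand: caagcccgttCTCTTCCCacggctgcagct
Rpl12, chr2:32961732-32961761, plus strand: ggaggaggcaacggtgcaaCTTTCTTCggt
Rpl28, chr7:4792953-4792982, plus strand: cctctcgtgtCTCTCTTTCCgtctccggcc
Rpl35, chr2:39005119-39005148, minus strand: gtcggccccgCCCTTTCCTCTTTCTCTCga
Rpl35a, chr16:33056467-33056496, plus strand: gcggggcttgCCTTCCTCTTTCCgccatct
Rpl18, chr7:45718062-45718091, plus strand: tcgcaggccgCTCTTTCCCCgcccactccg
Rpl13a, chr7:45128724-45128753, minus strand: tgcgacaagaCCTCCTCCTTTCCCaggcgg
Rpl4, chr9:64173403-64173432, plus strand: aggagcgtggCCTTCTCCTCTCCCCgtcat
Rps24, chr14:24490707-24490736, plus strand: agtgagcggtCCTCTTTTCCTCCTCTCCag
Rpl22l1 and Rpl12 had runs of 8 bases, the shortest that counted, whereas the runs of Rpl35 and Rps24 had 18 bases. In these windows the run began between position -36 (Rps24) and 40 (Rpl12) relative to the annotated gene start. A run shown therefore need not be the first bases of the mRNA.

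Other motifs were searched on both strands of the whole 300-base window. The ETS motif CCGGAAG was found in 23 of the 59 windows (39.0%), against 9.93% of all genes. CATTCC, the core motif of the TEAD factors through which TAZ acts, was found in 6 (10.2%), against 16.6% of all genes. The E-box CACGTG was found in 6 (10.2%, against 8.09%), TATAAA in 7 (11.9%, against 15.7%) and the YY1 motif GCCATCTTG in 1 (1.69%, against 1.42%). These matches describe the letters in these windows and not the binding of a factor.

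Together the ribosomal protein genes took a smaller share of the counts in both TAZ-KO clones than in any WT clone. They held 1.53% and 1.47% of all counts in TAZ-KO clones 1 and 2, against 1.96%, 2.08% and 2.31% in WT clones 1, 2 and 3. The means were 1.5% ± 0.0417 in TAZ-KO (SD, n = 2) and 2.12% ± 0.180 in WT (SD, n = 3), a difference of -0.617 percentage points. Both subunits contributed. Small subunit genes held 0.605% ± 0.00622 in TAZ-KO and 0.893% ± 0.0589 in WT, and large subunit genes 0.895% ± 0.0355 in TAZ-KO and 1.22% ± 0.127 in WT. These shares rest mostly on abundant genes, since the 5 most abundant members gave 38.0% and the 10 most abundant 57.4% of the members' counts. In bulk RNA, fewer cells of a kind and less RNA per cell cannot be told apart.

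**Figure D1:**
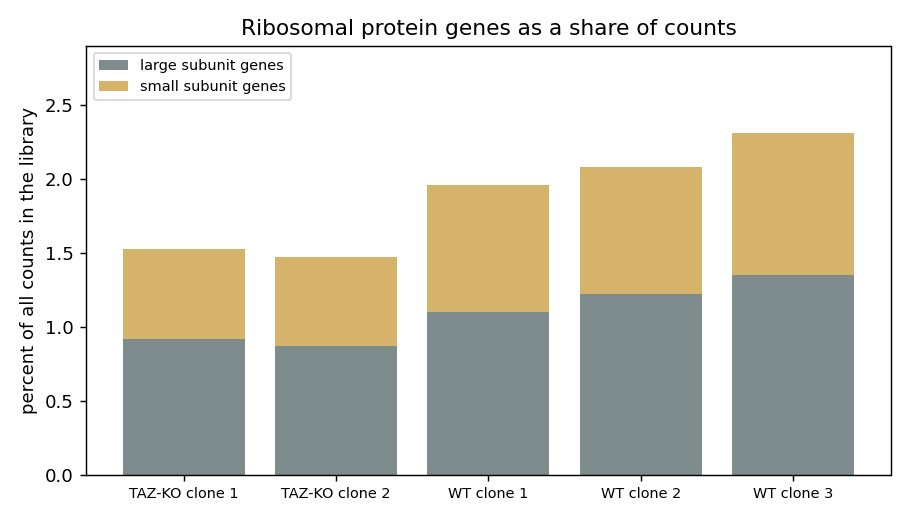
Stacked bars show the percent of all counts that fell on large subunit (bottom) and small subunit (top) ribosomal protein genes in each of the 5 clones, TAZ-KO left of WT. The totals of 1.53% and 1.47% in TAZ-KO lie below the 1.96% to 2.31% of the WT clones.

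The libraries held between 14695384 and 16452147 counts, so that 3 counts equalled 0.184 to 0.203 CPM (counts scaled to a common library size with TMM). The targeted gene Wwtr1 had 129 and 152 CPM in TAZ-KO, against 660, 312 and 315 CPM in WT, with a log2 fold change of -1.61 ± 0.40 (SE) and an adjusted p of 0.190 in edgeR. The 6 epithelial markers were all listed and summed to 2927 to 2996 CPM in TAZ-KO and 1711 to 3769 CPM in WT. Of 7 leukocyte marker symbols, which include both names of Adgre1 (Emr1), 4 were listed, with a sum of at most 1.97 CPM in TAZ-KO and 7.04 CPM in WT. Of 7 endothelial and fibroblast markers 5 were listed, summing to 88.7 to 95.3 CPM in TAZ-KO and 29.7 to 117 CPM in WT. Most of this sum came from Pdgfra, with 90.8 and 89.7 CPM in TAZ-KO, against 117, 37.9 and 26.3 CPM in WT. The part of these markers in the results below was not tested.

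Gene by gene, most ribosomal protein genes had a lower estimate in TAZ-KO, but none passed the main test. The log2 fold change (TAZ-KO over WT) was negative for 72 of the 79 (91.1%), against 52.0% of the 11975 genes tested, and its median was -0.39, against -0.03 over all genes tested. The quasi-likelihood F-test of edgeR, at a Benjamini-Hochberg adjusted p of 0.05 over all genes, called 0 members higher (0.00835% of all genes were) and 0 lower (0.0418% of all genes were). At an unadjusted p of 0.05, 0 members were higher (background 7.94%) and 28 were lower (35.4%, background 9.41%). For 42 members (53.2%) every TAZ-KO value was below every WT value, against 18.6% of all genes, and for 1 member (1.27%) it was above, against 18.7%. The last count was 6 without TAZ-KO clone 2, and 2 without any 1 of the WT clones. Groups of fewer clones overlap less often, and the share of all genes was not computed for these smaller sets.

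**Figure D2:**
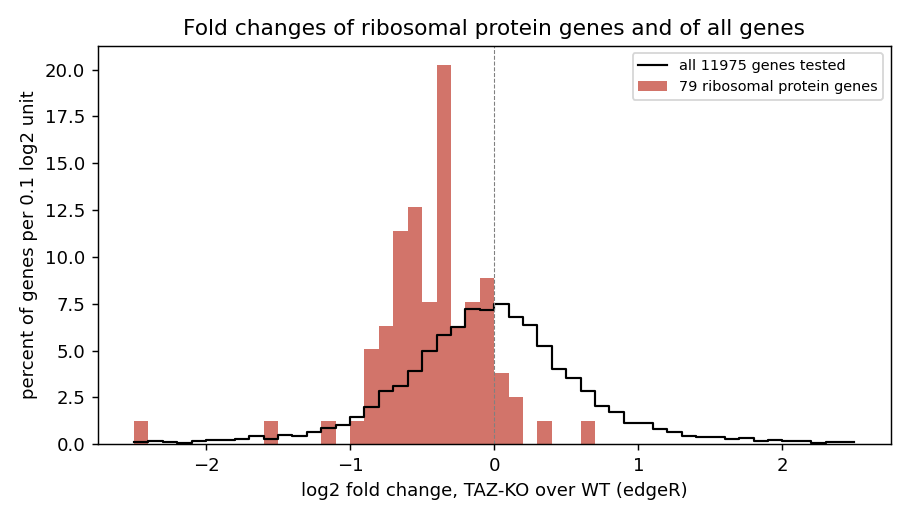
Bars show the percent of the 79 ribosomal protein genes, and the black line that of all 11975 genes tested, in steps of 0.1 of the log2 fold change (TAZ-KO over WT, edgeR, shown from -2.5 to 2.5). The members' median of -0.39 lies left of the -0.03 of all genes.

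The number of calls depended on the test and on WT clone 1. DESeq2 called 6 members lower (7.59%, against 3.4% of all genes) and 0 higher (2.38% of all genes). With 1 surrogate variable in edgeR, 3 were called lower (3.80%, against 2.51%) and 0 higher (background 1.9%). Without WT clone 1, edgeR called 29 lower (36.7%, against 19.7%) and 0 higher (background 19.1%), and leaving out any other clone gave 0 calls in either direction.

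The clones differed in how the whole set sat against its own average. Relative to each gene's mean over the 5 clones, the median member deviated by -0.17 and -0.29 log2 units in TAZ-KO clones 1 and 2, and by 0.07, 0.12 and 0.34 in WT clones 1, 2 and 3, whereas the median of all tested genes stayed within 0.0109 of 0. In TAZ-KO clones 1 and 2, 60 and 74 members lay below their own mean, against 31, 15 and 6 in WT clones 1, 2 and 3. WT clone 3 was the highest of the 5 clones for 56 members, and the highest clone was a WT clone for 72. The lowest clone was a TAZ-KO clone for 58. Between the WT clones the median member had an SD of 0.22 log2 units, against 0.34 over all tested genes. The genes compared were not matched for level, with a median of 63.4 CPM for members and 36.8 CPM for all tested genes.

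**Figure D3:**
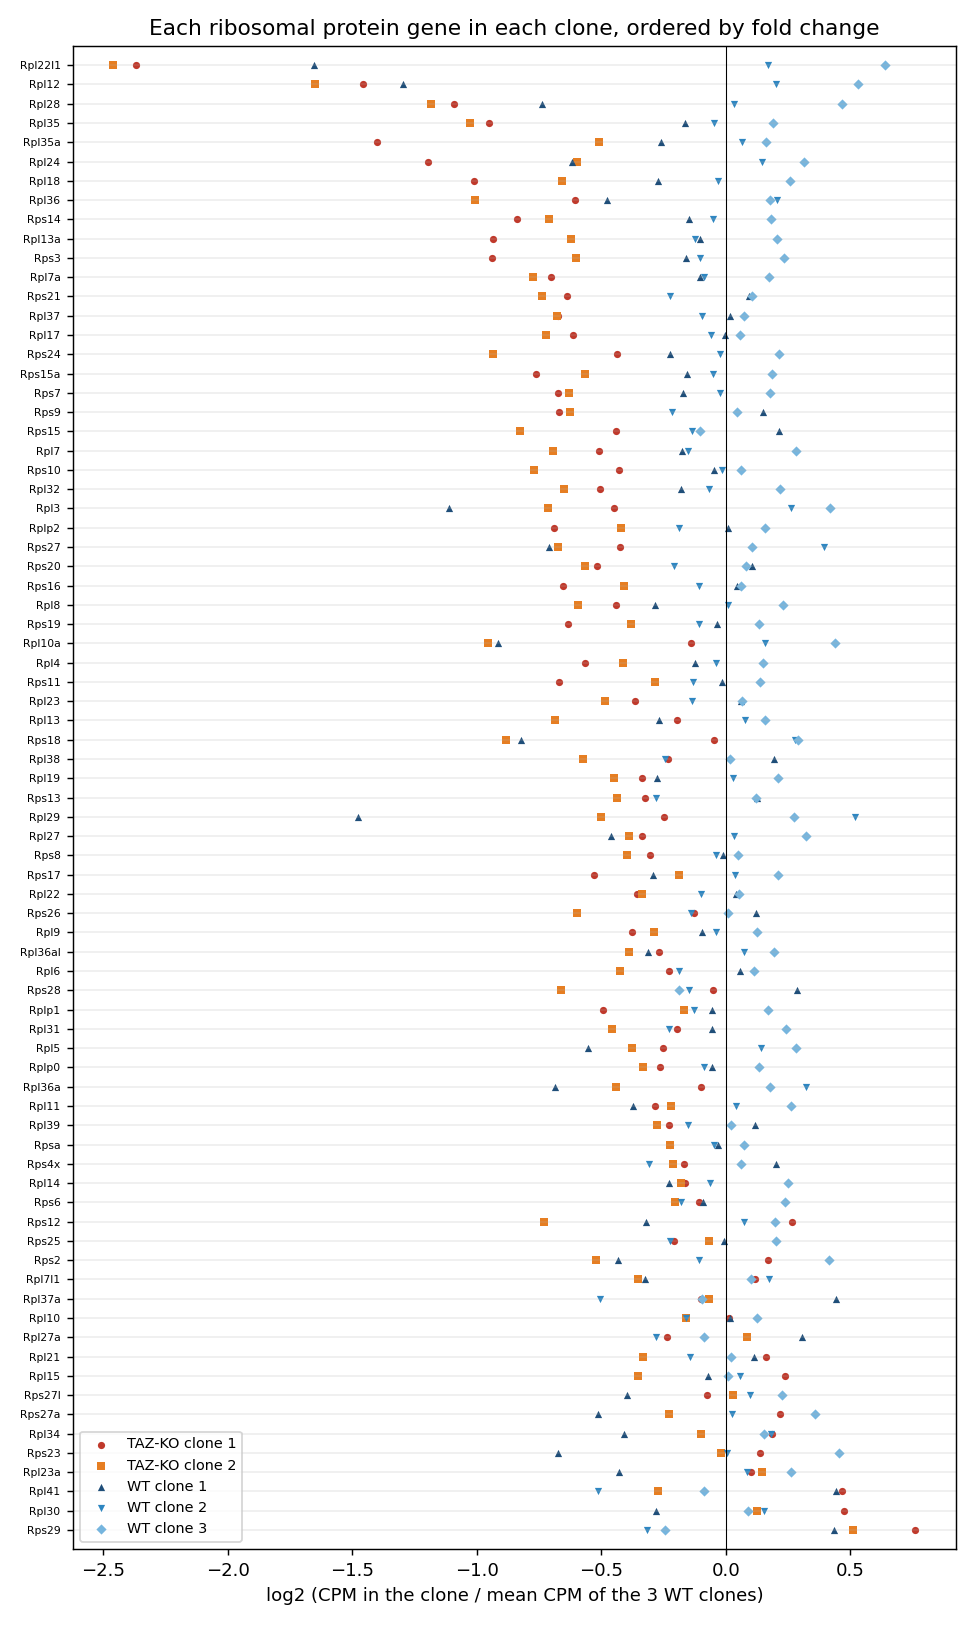
Each row is 1 of 77 of the 79 ribosomal protein genes, ordered from the most negative (top) to the most positive (bottom) fold change, and each point the log2 ratio of a clone's CPM to the mean CPM of the 3 WT clones. Both TAZ-KO clones lie left of every WT clone in 40 of these rows and right of every WT clone in 1, Rps29.

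Small subunit genes had a median log2 fold change of -0.41. Of the 31 genes, 28 were negative and 17 (54.8%) lay below every WT clone, against 18.6% of all genes. Rps3, which lines the mRNA entry channel, was the most abundant of them, with 850 and 1076 CPM in TAZ-KO, against 1460, 1517 and 1916 CPM in WT (log2 fold change -0.76 ± 0.26, edgeR adjusted p 0.249). Rps14, a platform protein whose loss underlies the anaemia of the human 5q deletion, had 259 and 283 CPM in TAZ-KO, against 418, 447 and 525 CPM in WT. In neither of these genes did the groups overlap, and the edgeR log2 fold change of Rps14 was -0.77 ± 0.22 with an adjusted p of 0.214. DESeq2 called Rps14 lower, with an adjusted p of 0.0279.

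Rpsa, also known as the laminin receptor, had 169 and 169.5 CPM in TAZ-KO, against 194, 192 and 208 CPM in WT. Its groups did not overlap, but its log2 fold change was small at -0.22 ± 0.18 (edgeR adjusted p 0.534). Rps29, a very small zinc-binding protein, was the only member whose TAZ-KO values both exceeded all WT values. It had 5.95 and 5.0 CPM in TAZ-KO, against 4.75, 2.82 and 2.96 CPM in WT, so that WT clone 1 sat next to the TAZ-KO clones. Its log2 fold change was 0.64 ± 0.39, with an edgeR adjusted p of 0.417.

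Large subunit genes had a median log2 fold change of -0.38. Of the 48 genes, 44 were negative and 25 (52.1%) lay below every WT clone, against 18.6% of all genes. Rpl4, which lines the exit tunnel of the nascent chain, was the most abundant member, with 1865 and 2070 CPM in TAZ-KO, against 2532, 2687 and 3059 CPM in WT (log2 fold change -0.49 ± 0.24, edgeR adjusted p 0.339). Rpl8, near the peptidyl transferase centre, had 1106 and 994 CPM in TAZ-KO, against 1232, 1508 and 1761 CPM in WT (log2 fold change -0.51 ± 0.25). Rpl13a had 601 and 746 CPM in TAZ-KO, against 1068, 1054 and 1325 CPM in WT (log2 fold change -0.77 ± 0.25, edgeR adjusted p 0.235). In these abundant genes all 3 WT clones exceeded both TAZ-KO clones.

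The groups did not overlap in Rpl35, Rpl18 or Rpl36 either. Rpl35 (chr2:39001580-39005624, mm10), a protein at the mouth of the exit tunnel where targeting factors bind, had 43.2 and 41.0 CPM in TAZ-KO, against 74.4, 80.7 and 95.3 CPM in WT, with a log2 fold change of -0.99 ± 0.21 and an adjusted p of 0.144. It was called lower by DESeq2 (adjusted p 0.00405), by edgeR with 1 surrogate variable (0.0294) and by edgeR without WT clone 1 (0.00264). DESeq2 also called Rpl37 (adjusted p 0.0317) and Rpl7a (adjusted p 0.0385). Counts of Rpl35 and Rpl7a are uncertain in that 95.1% and 81.2% of the 50-base stretches of their transcripts also occur in other genes. Rpl18 had 47.9 and 61.2 CPM in TAZ-KO, against 80.0, 94.5 and 115 CPM in WT, and Rpl36 had 17.3 and 13.1 CPM in TAZ-KO, against 18.9, 30.3 and 29.7 CPM in WT. Their log2 fold changes were -0.82 ± 0.24 for Rpl18 and -0.79 ± 0.31 for Rpl36.

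The 3 members with the most negative fold changes, Rpl22l1, Rpl12 and Rpl28, were also among the 5 with the widest range over the clones, and in each WT clone 1 was the lowest WT clone. Rpl22l1 (chr3:28805436-28807424, mm10), a paralogue of Rpl22, had 6.61 and 6.21 CPM in TAZ-KO, against 10.9, 38.4 and 53.1 CPM in WT. Rpl12, a protein at the base of the stalk, had 23.8 and 20.8 CPM in TAZ-KO, against 26.6, 75.1 and 94.3 CPM in WT. Rpl28, which budding yeast lacks, had 6.48 and 6.07 CPM in TAZ-KO, against 8.27, 14.1 and 19.1 CPM in WT. Although no TAZ-KO clone reached a WT clone in any of these genes, WT clones 2 and 3 stood well above WT clone 1. The log2 fold changes were -2.41 ± 0.67, -1.55 ± 0.53 and -1.14 ± 0.41 in that order, with edgeR adjusted p of 0.212, 0.249 and 0.261. Without WT clone 1 they were -2.83 (adjusted p 0.000351), -1.92 (0.00052) and -1.40 (0.00606). With all 5 clones DESeq2 called Rpl22l1 (adjusted p 0.00535) but not Rpl12 (0.0596) or Rpl28 (0.131).

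Rpl22l1 made up a different share of its pair with Rpl22 in different clones. It gave 1.63% (95% exact binomial interval 1.33 to 1.98) and 1.51% (1.22 to 1.85) of the counts of both genes in TAZ-KO clones 1 and 2, against 2.03% (1.73 to 2.36), 7.47% (6.92 to 8.05) and 9.14% (8.57 to 9.74) in WT clones 1, 2 and 3. These intervals cover counting error only, and that of WT clone 1 overlaps those of both TAZ-KO clones. Rpl22 itself, which in mouse cells represses Rpl22l1, had 398 and 404 CPM in TAZ-KO, against 525, 476 and 528 CPM in WT (log2 fold change -0.35 ± 0.20, edgeR adjusted p 0.397).

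The other 3 paralogue pairs with both genes listed, of 8 pairs considered, varied less in relative terms. Rpl7l1 gave 44.5% and 39.8% of its pair with Rpl7 in TAZ-KO, against 31.9%, 39.5% and 31.5% in WT. This share was above every WT clone in both TAZ-KO clones, though by less than the counting error between TAZ-KO clone 2 and WT clone 2. Rpl7 had 269 and 236 CPM in TAZ-KO, against 339, 344 and 465 CPM in WT, whereas Rpl7l1 overlapped between the groups, at 216 and 156 CPM in TAZ-KO against 159, 225 and 214 CPM in WT. Rpl36al held most counts of its pair with Rpl36a (93.1% and 94.0% in TAZ-KO, against 95.2%, 92.7% and 93.9% in WT). Rps27l likewise held most counts of its pair with Rps27, at 92.7% and 94.2% in TAZ-KO, against 92.5%, 89.0% and 91.5% in WT. However, 98.7% of the 50-base stretches of the Rps27 transcript also occur in other genes, against 22.4% for Rps27l. For Rpl36a and Rpl36al these shares were 85.5% and 63.3%. The part of this in the counts of each pair was not tested.

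The stalk proteins, which recruit the elongation factors, had lower values in both TAZ-KO clones than in any WT clone. Rplp0 had 778 and 742 CPM in TAZ-KO, against 899, 880 and 1027 CPM in WT (log2 fold change -0.30 ± 0.21). Rplp1 had 715 and 897 CPM in TAZ-KO, against 969, 921 and 1130 CPM in WT (log2 fold change -0.32 ± 0.24). Rplp2 had 240 and 289 CPM in TAZ-KO, against 389, 339 and 432 CPM in WT (log2 fold change -0.55 ± 0.22). The edgeR adjusted p were 0.481, 0.491 and 0.283 in that order.

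Rpl5, Rpl11 and Rpl23 can bind MDM2 and so restrain its action on p53. Rpl23 had 257 and 237 CPM in TAZ-KO, against 345, 301 and 346 CPM in WT (log2 fold change -0.42 ± 0.20, edgeR adjusted p 0.323), with no overlap. Rpl5 had only 4.43 and 4.07 CPM in TAZ-KO, against 3.59, 5.83 and 6.41 CPM in WT, and Rpl11 had 5.49 and 5.74 CPM in TAZ-KO, against 5.15, 6.87 and 8.02 CPM in WT. In both genes WT clone 1 was the lowest clone of all.

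Counted levels of the members spread widely, and the low ones lay mostly in genes whose sequence is shared. Mean CPM ran from 1.72 for Rpl29 to 2443 for Rpl4, a 1424-fold range, and CPM per kilobase of transcript from 2.38 for Rpl5 to 1856 for Rplp1, a 780-fold range. The median was 63.4 CPM, and 16 members had under 10 CPM and 35 at least 100 CPM. For each member, the share of 50-base stretches of its transcript that occur exactly in a transcript of another gene of the annotation was computed, pseudogenes included. Such a stretch existed in 78 of the 79, and the median share was 60.0%. The median member shared a stretch with 8 pseudogenes, and Rpl7a with 120.

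The stretches below, from the coding sequences of 4 low members, occur unchanged in other genes. A read lying within one of them cannot be assigned to 1 gene by its sequence.
Rpl29, coding bases 211 to 260, in 32 other genes of which 29 are pseudogenes: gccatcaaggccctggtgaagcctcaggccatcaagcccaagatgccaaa
Rpl23a, coding bases 250 to 299, in 18 other genes of which 17 are pseudogenes: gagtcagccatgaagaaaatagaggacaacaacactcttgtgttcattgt
Rpl5, coding bases 691 to 740, in 6 other genes, all pseudogenes: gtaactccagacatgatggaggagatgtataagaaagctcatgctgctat
Rps27, coding bases 161 to 210, in 5 other genes of which 4 are pseudogenes: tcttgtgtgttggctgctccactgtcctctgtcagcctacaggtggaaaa

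Members with less shared sequence had higher counts. The 10 members with under 25% of stretches shared had a median of 435 CPM, the 18 with 25 to 50% a median of 283 CPM, the 24 with 50 to 75% a median of 113 CPM and the 27 with 75% or more a median of 12.4 CPM. Across these 79 genes of the same libraries, Spearman's rho between mean CPM and the percent shared was -0.63, and -0.60 for CPM per kilobase, as a description. These values depend on the transcript chosen: that of Rps20 had 3706 bases and 7.57% shared. They also use the whole transcript, whereas the methods name a 3' end protocol, in which counts need not follow transcript length. The sources used here do not give how reads that match several genes were handled, and the part of this in these levels was not tested. Rps29 (35.8% shared, 4.30 CPM) had low counts with less shared sequence than the median of 60.0%. Rpl13a (57.4% shared, 959 CPM) had high counts with a share near that median.

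**Figure D4:**
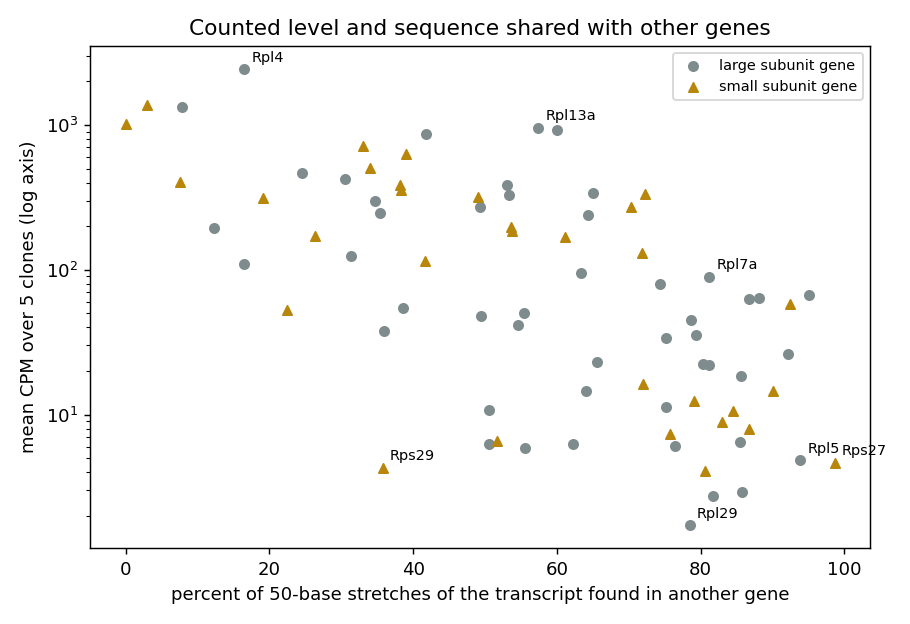
Each point is 1 of the 79 genes, with the percent of its transcript's 50-base stretches found in another gene on the horizontal axis and its mean CPM over 5 clones on a log axis. Medians fall along the axis, 435 CPM under 25% shared and 12.4 CPM at 75% or more.

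The median fold change was negative in members with little and in members with much shared sequence. The 28 members with under 50% shared had a median log2 fold change of -0.52, and 21 of them (75%) lay below every WT clone in both TAZ-KO clones. The 51 members with 50% or more had a median of -0.35, and 21 (41.2%) lay below every WT clone. A split by level gave 34 of 45 members (75.6%) below every WT clone at a mean of at least 50 CPM and 8 of 34 (23.5%) under it. Over all genes tested, at any level, the share was 18.6%, so that of the low members lay near it. No share of all genes at a like level was computed. In the low members WT clone 1 deviated by -0.23 log2 units in the median, against 0.18 in the abundant ones. Both splits were chosen after the values were seen, and the differences between the parts were not tested. The table also listed 5 pseudogenes or retrocopies of these genes, which are no members, and 3 of them passed the low-count filter. Rpl14-ps1 had 547 and 618 counts in TAZ-KO, against 452, 655 and 838 counts in WT, and Rps19-ps3 had 20 and 10 counts in TAZ-KO, against 16, 12 and 15 counts in WT. In both the groups overlapped, whereas Rpl37rt, with 224 and 194 counts in TAZ-KO against 341, 328 and 357 counts in WT, showed no overlap.

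The TAZ-KO clones differed from each other over whole chromosomes. Over the 355 genes tested on chromosome 16 the median of TAZ-KO clone 1 minus clone 2 was -0.45 log2 units. Over the 388 on chromosome 14 it was 0.41. Outside chromosomes 14, 16 and X it was 0.00237 over 10478 genes pooled, without a value for each chromosome. The members on chromosomes 14 and 16 differed in the same direction as the genes there. On chromosome 16, Rpl35a (chr16:33056453-33060189), mutated in some Diamond-Blackfan anaemia families, had 19.2 and 35.6 CPM in TAZ-KO, against 42.4, 53.1 and 56.8 CPM in WT, and Rpl24 had 1.45 and 2.20 CPM in TAZ-KO, against 2.17, 3.68 and 4.13 CPM in WT. On chromosome 14, Rps24 had 271 and 192 CPM in TAZ-KO, against 314, 360 and 425 CPM in WT, and Rpl15 had 40.4 and 26.8 CPM in TAZ-KO, against 32.6, 35.6 and 34.5 CPM in WT. The 4 members on X (Rpl10, Rpl36a, Rpl39 and Rps4x) differed between the TAZ-KO clones by a median of 0.11. On X it was the groups that differed. Relative to each gene's mean, the median of the 326 X genes tested deviated by 0.17 and 0.12 in TAZ-KO clones 1 and 2. In WT clones 1, 2 and 3 it deviated by -0.03, -0.16 and -0.08. The 4 members on X went the other way, with log2 fold changes of -0.26 (Rpl36a), -0.25 (Rpl39), -0.19 (Rps4x) and -0.07 (Rpl10). Of these only Rpl39 lay below every WT clone in both TAZ-KO clones. The 71 members on the other chromosomes had the same median log2 fold change, -0.39. Of them, 39 (54.9%) lay below every WT clone, against 18.6% of all genes.

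Outside the symbol rule, 4 listed genes encode cytosolic ribosomal proteins or a ribosome-bound protein but have other names. All 4 had negative fold changes without overlap between the groups. Fau, whose product is a small subunit protein fused to a ubiquitin-like protein, had 28.6 and 21.9 CPM in TAZ-KO, against 45.6, 55.7 and 67.8 CPM in WT (log2 fold change -1.16 ± 0.26, edgeR adjusted p 0.156). Gnb2l1, the scaffold protein RACK1, had 1370 and 1300 CPM in TAZ-KO, against 1762, 2045 and 2303 CPM in WT (log2 fold change -0.61 ± 0.24). DESeq2 called 1 of the 4 lower (3.4% of all genes), and edgeR gave 2 an unadjusted p under 0.05 (9.41% of all genes, in this direction).

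Of 14 elongation factor and other TOP mRNA genes, 12 had negative fold changes (52.0% of all genes tested did), with a median of -0.37, and 7 (50%) lay below every WT clone, against 18.6% of all genes. Eef2, the translocase of the elongating ribosome, had 3761 and 2868 CPM in TAZ-KO, against 5413, 5161 and 5936 CPM in WT (log2 fold change -0.73 ± 0.27, edgeR adjusted p 0.262). Eef1g had a log2 fold change of -0.87 ± 0.30 and Eif4b one of -0.62 ± 0.21. Among 13 genes of mTORC1 and LARP1 control the median was -0.18, with 8 negative and 4 (30.8%) below every WT clone, against 52.0% and 18.6% of all genes. Eif4ebp1, the translation repressor that mTORC1 phosphorylates, had a log2 fold change of -0.95 ± 0.45, with values of 113 and 210 CPM in TAZ-KO that overlapped the 170 to 385 CPM of WT. With all 5 clones edgeR called no gene of either list. In that fit 4 genes of the first list and 1 of the second had an unadjusted p under 0.05 and were lower (9.41% of all genes). DESeq2 called 2 and 0 lower (3.4% of all genes). Without WT clone 1 edgeR called 4 genes of the first list lower and 0 higher, and 4 of the second lower and 2 higher. That fit called 19.7% of all genes lower and 19.1% higher.

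The factors that build ribosomes had a median fold change like that of the ribosomal proteins but a different pattern over the WT clones. The median log2 fold change was -0.39 for 50 small subunit assembly factors and -0.39 for 56 large subunit assembly factors, yet only 6 (12%) and 12 (21.4%) lay below every WT clone, against 18.6% of all genes. In WT clone 1 these lists deviated by -0.42 and -0.30 log2 units, below the -0.17 to -0.23 of the TAZ-KO clones, and in WT clones 2 and 3 by 0.33 to 0.46. Nop56, a core protein of the box C/D snoRNPs that guide rRNA methylation, had 168 and 137 CPM in TAZ-KO, against 146, 436 and 432 CPM in WT. Nle1, a large subunit assembly factor, had 24.5 and 20.2 CPM in TAZ-KO, against 29, 60.7 and 62.5 CPM in WT. Neither list had a call by edgeR or DESeq2 with all 5 clones (unadjusted p under 0.05 in edgeR for 1 small subunit factor in each direction and for 8 large subunit factors, all lower, against 7.94% of all genes higher and 9.41% lower), whereas without WT clone 1 edgeR called 30 small subunit factors lower and 2 higher, and 32 large subunit factors lower and 0 higher. That fit called 19.7% of all genes lower and 19.1% higher.

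The 15 genes of RNA polymerase I and its factors, which transcribe the large rRNA precursor, had a median log2 fold change of -0.49, with 11 negative (52.0% of all genes) and 7 (46.7%) below every WT clone, against 18.6% of all genes. Taf1d had 92.7 and 88.5 CPM in TAZ-KO, against 86.7, 293 and 344 CPM in WT. The 77 mitochondrial ribosomal protein genes had a smaller median of -0.18, with 56 negative (52.0% of all genes). Of the 77, 13 (16.9%) lay below every WT clone and 8 above, against 18.6% and 18.7% of all genes. Mrpl13 had a log2 fold change of -0.99 ± 0.27, while Mrpl18 had 1.00 ± 0.34 and Mrps21 0.99 ± 0.29. With all 5 clones, none of the mitochondrial or polymerase genes was called by edgeR. At an unadjusted p under 0.05, edgeR had 5 polymerase genes lower, and 6 mitochondrial genes lower and 3 higher, against 9.41% of all genes lower and 7.94% higher, and DESeq2 called 0 and 1 lower (3.4% of all genes). The share of mitochondrial genes below every WT clone was thus near that of all genes. Without WT clone 1, however, edgeR called 22 mitochondrial genes lower and 4 higher, and 9 polymerase genes lower and 1 higher. That fit called 19.7% of all genes lower and 19.1% higher.

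**Figure D5:**
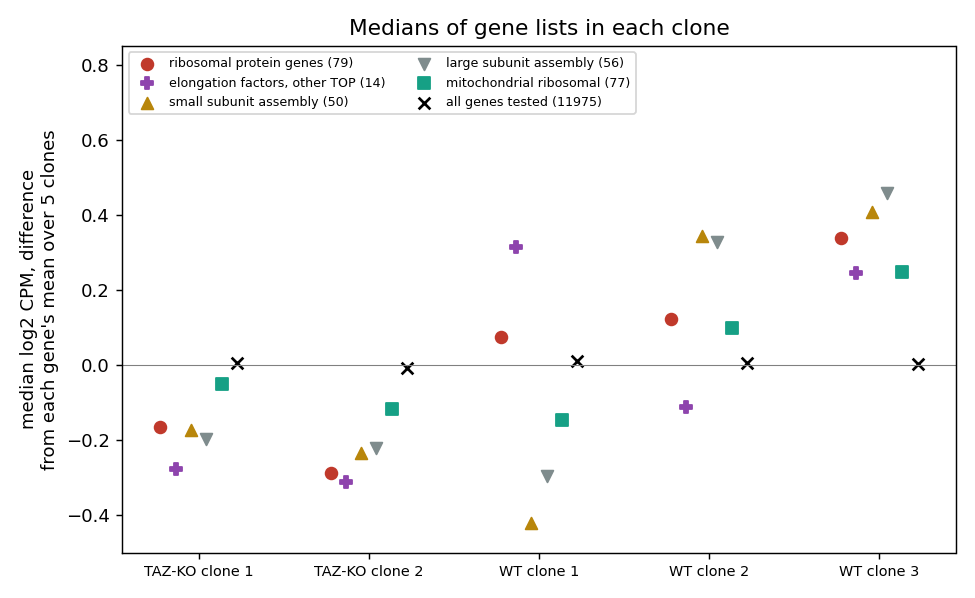
Points give, for each clone (TAZ-KO left of WT), the median over a gene list of the difference in log2 CPM from each gene's mean over the 5 clones. Ribosomal protein genes lie at -0.17 and -0.29 in TAZ-KO and at 0.07 to 0.34 in WT, whereas in WT clone 1 the assembly factor lists lie at -0.42 and -0.30.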

How the data were processed

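Untreated 4T1 cells were sequenced in 5 libraries, 2 of TAZ-KO and 3 of WT clones. The labels name an mRNA library protocol and the methods a barcoded 3' end protocol, and the sources used here do not give how strand was handled. The TAZ-KO column names contain YAP, but the labels say TAZ knockout and were followed. The authors deposited raw counts per gene, after adapter trimming with cutadapt, alignment with STAR and counting in UTAP, and the submitters' processing notes name mm10 and DESeq2. The authors also deposited normalised signal (counts divided by a size factor) and regularised log2 values, which were not used, and the log2 fold changes and p-values of their own comparison, which were not used either. Genes with low counts had been removed before deposit.

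Counts were tested with edgeR 4.0.16 in R 4.3.3 (quasi-likelihood F-test, TMM, filterByExpr by group, genotype only, Benjamini-Hochberg adjustment over 11975 genes, threshold 0.05), which was tested on simulated data first. All 79 members passed the low-count filter, with at least 10 counts in every library. Levels are CPM, ± after a fold change is a standard error (fold change over the square root of F), and deviations use log2 CPM with a prior count of 2. Alternatives were other normalisations and filters, DESeq2 1.42.0, limma-voom (limma 3.58.1), a block for the replicate number, sva 3.50.0 with 1 surrogate variable and leaving out each library. Positions and transcripts are those of the GENCODE annotation of GRCm38, and promoters those of RefSeq (GRCm38.p6).

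The members and gene lists were chosen with earlier results of these data known. Genes were named by rule: members called by edgeR, up to 10 per direction with the largest change among those without overlap, the 5 most abundant, Rpsa, the stalk and MDM2-binding genes, paralogue pairs, members on chromosomes 14, 16 and X, the 5 of largest range, and up to 3 of each other list. Rpl7a, Rpl37, Rpl23a and members named for a single property were added after their values were seen. Results of some genes are not reported here.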

Additional observations from a re-analysis of the deposited data

How the results depend on the processing

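The direction of the set held under every alternative run: the median log2 fold change lay between -0.52 (members with under 50% of stretches shared) and -0.32 (replicate block). Leaving out single clones moved the median from -0.50 to -0.32, and the difference in the share of counts from -0.696 to -0.52 percentage points. The members below every WT clone ran from 42 to 57 and those above from 1 to 6. Groups of fewer clones overlap less often, and the share of all genes was not computed for these sets. Members called lower ran from 0 to 29, with all 29 calls after leaving out WT clone 1 (36.7%, against 19.7% of all genes). The members called lower were 6 with DESeq2 and 3 with 1 surrogate variable. Of the alternatives chosen after seeing the data, members with under 50% of stretches shared had 21 (75%) below every WT clone, against 18.6% of all genes. Members with at least 50 CPM had 0 above, against 18.7% of all genes. With 1 surrogate variable 13 of the 79 members changed sign, 12 of them to a positive value and none called, among them Rpl3 (-0.58 without and 0.24 with the variable), Rpl10a (-0.49 and 0.18), Rps18 (-0.41 and 0.20) and Rpl41 (0.14 and -0.12). Of the genes named by rule, those that changed sign, none of them called, were with 1 surrogate variable Rpl5 (0.0835), Rpl11 (0.0119), Rpl7l1 (0.14), Rpl36a (0.23), Rps27l (0.26), Rpl15 (0.0345) and Rpl29 (0.71), with the replicate block Rps27l (0.12) and Rpl29 (0.0418), and on leaving out single clones Rpl7l1 (range -0.33 to 0.11), Rps27l (-0.18 to 0.10), Rpl10 (-0.14 to 0.0121) and Rpl15 (-0.33 to 0.24). The cause was not tested. The replicate block gave 0 calls and a median of -0.32. Same-numbered clones had correlations of -0.119 and -0.119 in their deviations from the group means, and the clones share only a number. Members under 10 CPM rest on few counts.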
